A study of Mus musculus with 6 samples.

Results

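The coagulation and fibrinolysis genes described here are F3, F5, F10, F13a1, Thbd, Anxa2, S100a10, Plau and Plaur, 9 of the 16440 genes in the expression table. They were taken by name, as genes linked to the bleeding and clotting disorder of acute promyelocytic leukemia (APL), and all 9 were found in the table. The comparison was between 3 RNA-seq libraries of normal myeloid progenitors (MPs) and 3 of c-Kit+ APL progenitors, all from mice of the strain FVB N/J and without drug treatment. Normal MPs were the Lin-Sca-1-c-Kit+ fraction of bone marrow (BM), a gate that holds progenitors of several lineages, megakaryocytic and erythroid ones included. The APL cells came from hMRP8-PML/RARα transgenic mice, in which the fusion protein is expressed from a promoter of the myeloid lineage. They had been labeled with the GFP retroviral vector MigR1, expanded by transplantation into syngeneic mice and sorted as GFP+ c-Kit+ cells. For the labeling, the study describes culture of the cells with cytokines and transplantation into sublethally irradiated mice. The labels give the normal MPs none of these steps. Effects of the leukemia, the transgene, the vector, the culture, the irradiation and the transplantation therefore cannot be told apart. The study gives an age range for transplant recipients only, and the age of the mice behind the normal MPs is not given. The submitters call the libraries of a group biological replicates, but whether each came from a separate mouse, or the 3 APL libraries from separate primary leukemias, is not stated. P-values therefore measure the spread between libraries only.

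Clotting starts when tissue factor (F3) on a cell surface meets factor VII. This pair activates factor X, which with its cofactor, factor V, turns prothrombin into thrombin, and factor XIII then cross-links the fibrin that thrombin forms. Thrombomodulin (Thbd) binds thrombin and turns it toward the anticoagulant protein C. Fibrin is dissolved by plasmin, which urokinase (Plau) releases from plasminogen on cells that carry the urokinase receptor (Plaur), and the complex of annexin A2 (Anxa2) with S100A10 (S100a10) gathers plasminogen and its activators on the membrane. Tissue factor and the annexin A2 complex are the molecules most often named in the coagulopathy of human APL.

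Values are given as scaled fragments, the fragment values of a gene as deposited, which already carry a scaling factor of their library, or as FPKM, which the authors normalized to transcript length and sequencing depth, where levels of different genes are compared. Values of single libraries are given in the order of their numbers, 1 to 3. With that factor removed, as estimated from the step between low values, a library held between 20608715 and 28382785 fragments. Differences were tested with limma on log2(scaled fragments + 1), a scale on which folds of weakly detected genes come out too small. The test took in the 14595 genes with at least 1 scaled fragment in at least 3 libraries. A gene was called at a Benjamini-Hochberg adjusted p under 0.05 with a fold change over 1.5. All 9 genes passed the filter. Of these, 6 were called higher in c-Kit+ APL progenitors (F5, F10, F13a1, Thbd, Anxa2 and Plau), 2 were called lower (F3 and Plaur) and S100a10 was not called. Over all genes tested, 46.1% were called, 21.7% higher and 24.4% lower. For each of the 9 genes the APL and MP values did not overlap, which also held for 70.9% of all genes tested, and the exact permutation test (two-sided) gave p = 0.1 for each, the smallest p that 3 libraries against 3 allow. The median log2 fold change was 1.81 over the 9 genes and -0.10 over all genes tested.

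**Figure D1:**
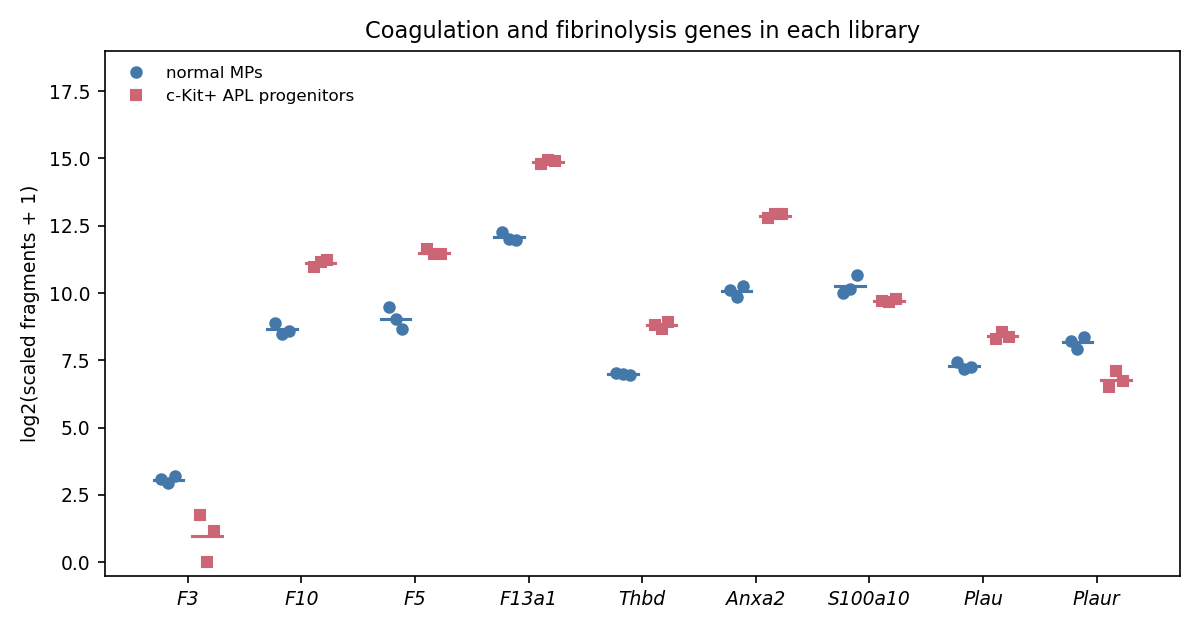
Level of each of the 9 genes, as log2(scaled fragments + 1), in the 3 libraries of normal MPs (circles) and the 3 of c-Kit+ APL progenitors (squares), with the group mean as a line. The APL points lie above the MP points for F10, F5, F13a1, Thbd, Anxa2 and Plau, and below them for F3, S100a10 and Plaur.

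RefSeq promoter windows of 300 bases, from 250 bases before to 50 bases after an annotated start, were at hand for 6 of the 9 genes (F3, F5, F10, F13a1, Anxa2 and Plaur). They are shown for the largest increases, F13a1 and Anxa2, and for the called decreases, F3 and Plaur, 5′ to 3′ on the strand of the gene in build GRCm38.p6. Capitals mark matches, on either strand, to any of 4 motifs. The core of retinoic acid receptor sites was searched as AGGTCA. The site of the AP-1 factors was written TGANTCA and that of the myeloid factor PU.1 as GAGGAAG. For the erythroid and megakaryocytic factor Gata1 the letters were AGATAA.
F13a1, chr13:37050195-37050494, minus strand: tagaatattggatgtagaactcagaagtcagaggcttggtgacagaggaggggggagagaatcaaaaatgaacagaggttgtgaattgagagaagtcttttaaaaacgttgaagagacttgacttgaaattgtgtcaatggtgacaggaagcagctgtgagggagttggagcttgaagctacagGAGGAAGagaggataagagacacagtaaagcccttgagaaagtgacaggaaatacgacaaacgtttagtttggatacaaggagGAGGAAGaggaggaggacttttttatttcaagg
Anxa2, chr9:69453433-69453732, plus strand: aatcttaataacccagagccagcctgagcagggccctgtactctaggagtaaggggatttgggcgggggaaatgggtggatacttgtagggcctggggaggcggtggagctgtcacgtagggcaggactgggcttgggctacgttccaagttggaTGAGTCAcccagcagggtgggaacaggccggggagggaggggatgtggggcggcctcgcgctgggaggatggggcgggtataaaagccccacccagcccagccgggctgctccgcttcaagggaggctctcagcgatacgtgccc
F3, chr3:121723287-121723586, plus strand: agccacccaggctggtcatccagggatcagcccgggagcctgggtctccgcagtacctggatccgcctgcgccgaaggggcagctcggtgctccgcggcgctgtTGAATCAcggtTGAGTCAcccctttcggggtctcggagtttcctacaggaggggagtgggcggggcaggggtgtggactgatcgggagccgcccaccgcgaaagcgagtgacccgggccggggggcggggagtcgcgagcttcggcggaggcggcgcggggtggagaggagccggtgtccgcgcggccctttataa
Plaur, chr7:24462233-24462532, plus strand: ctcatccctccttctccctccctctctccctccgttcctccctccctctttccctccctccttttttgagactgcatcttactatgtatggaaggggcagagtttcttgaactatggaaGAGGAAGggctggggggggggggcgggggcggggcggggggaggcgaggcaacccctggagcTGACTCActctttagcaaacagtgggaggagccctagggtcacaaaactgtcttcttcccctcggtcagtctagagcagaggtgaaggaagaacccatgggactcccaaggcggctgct
TGANTCA, the same on both strands, was found in 3 of the 6 genes (F3, Anxa2 and Plaur), against 7.81% of the 32851 promoter windows of the reference. Of these 3 genes, Anxa2 was higher in c-Kit+ APL progenitors and F3 and Plaur were lower. F3 held the motif at 2 places, beginning at positions -146 and -135 from the start. GAGGAAG was found in F13a1 and Plaur, which changed in opposite directions, and in 13.6% of all windows. A further annotated start of F13a1 also held it. AGGTCA was found once each in F5 and F10, on the opposite strand at positions -57 and -30, and in 16.3% of all windows. AGATAA was in none of the windows of the 6 genes and in 11.2% of all windows. The motifs do not overlap one another in these windows, and a match describes the letters only.

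Tissue factor, the trigger of clotting, was close to the detection limit in every library. F3 (chromosome 3 of GRCm38, 121723537 to 121735052) had 7.49, 6.66 and 8.12 scaled fragments across the MP libraries and 2.36, 0 and 1.23 across the APL libraries. Before scaling these were 24 fragments in all in the MP libraries and 3 in the APL libraries. The MP values were the higher ones throughout, but a level of 3 fragments or fewer in a library, which all 3 APL libraries had, was taken as not distinguishable from absence, a limit that covers counting error only. The MP mean of F3 was 2.26-fold this limit in the APL libraries. No allowance was made for counting error in the MP mean. The test called the difference between the groups (limma, adjusted p = 0.0037). In FPKM, an F3 level of 0.148 ± 0.0142 in the MP libraries and 0.0240 ± 0.0238 in the APL libraries (SD, n = 3) exceeded that of 23.8% and 16.9% of the genes in the table.

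Factor VII, the ligand of tissue factor, was not among the 9 genes but stands in the list of coagulation factors, and had the largest change of that list. F7 (chromosome 8, 13026034 to 13035809) had 15.0, 35.2 and 20.7 scaled fragments across the MP libraries and 11175, 13229.8 and 13406 across the APL libraries. Its log2 fold change was 9.08 (SE 0.25, limma adjusted p = 1.8e-08), and of the 14595 genes tested 11 had a larger increase. F7 therefore rose while F3, with which its product works, was lower and near the detection limit. The tissue factor pathway inhibitor Tfpi, which blocks the complex of tissue factor and factor VII, went from 1272 ± 59.4 to 2042 ± 106 scaled fragments (SD, n = 3), a log2 fold change of 0.68. With every library scaled to the same total, the log2 fold change of Tfpi was 0.55 and its call was lost. Its relative Tfpi2 rose from 14.9 ± 2.28 to 281 ± 20.9 (4.16).

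Factor X and factor V, the enzyme and the cofactor that act on prothrombin, both rose. F10 (chromosome 8, 13037308 to 13056676) had 473, 356 and 381 scaled fragments across the MP libraries and 1992, 2252 and 2374.5 across the APL libraries. The lowest APL value was far above the highest MP value. The log2 fold change of F10 was 2.46 (SE 0.12), a 5.48-fold increase (limma, adjusted p = 2.8e-07). The genes of chromosome 8 were as a group shifted upward, with a median log2 fold change of 0.48 over 778 genes tested. F10 stood 1.98 above that median, and 8.61% of the chromosome's genes had a larger increase.

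F5 had 712, 517 and 405 scaled fragments across the MP libraries and 3188, 2780.1 and 2762 across the APL libraries. The MP libraries differed more among themselves for F5 than for the other 8 genes, with a coefficient of variation of 28.5% against 8.28% in the APL libraries. The log2 fold change was 2.45 (SE 0.18, limma adjusted p = 3.3e-06). In the table F5 shares a locus (chromosome 1, 164115264 to 164220274) with Selp and Gm16548, and RefSeq starts F5 itself at 164151835. Fragments could thus have been divided between these genes. Selp, the gene of P-selectin, had a log2 fold change of -2.73, opposite to that of F5, and at most 197 scaled fragments in any library.

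Factor XIII A, whose product stabilizes the clot, had the highest level per length of the 9 genes in c-Kit+ APL progenitors. F13a1 (chromosome 13, 36867178 to 37050244) had 4942, 4130.2 and 4029 scaled fragments across the MP libraries and 28359.8, 31131 and 30784 across the APL libraries. Its log2 fold change was 2.79 (SE 0.10), a 6.91-fold increase (limma, adjusted p = 5.0e-08). In FPKM, F13a1 went from 36.1 ± 4.29 to 249.5 ± 11.1 (SD, n = 3), a level above 98.2% of the genes in the table.

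The anticoagulant receptor thrombomodulin rose as well. Thbd (chromosome 2, 148404471 to 148408188) had 128, 125 and 124 scaled fragments across the MP libraries and 447, 405 and 480.1 across the APL libraries. The MP values were almost the same in the 3 libraries, with a coefficient of variation of 1.71%. The log2 fold change of Thbd was 1.81 (SE 0.12), a 3.50-fold increase (limma, adjusted p = 1.5e-06). Protein S (Pros1), a cofactor of activated protein C, had 122, 134 and 173 scaled fragments across the MP libraries and 451, 544 and 531 across the APL libraries and rose as well (1.83 on the log2 scale). The endothelial protein C receptor gene Procr fell, with means of 53.7 ± 19.7 and 19.5 ± 7.55 and a log2 fold change of -1.42.

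The partners of the annexin A2 complex changed in different ways. Anxa2 (chromosome 9, 69453683 to 69491785) had 1096, 917 and 1215 scaled fragments across the MP libraries and 7026, 7781 and 7734 across the APL libraries. Its log2 fold change was 2.81 (SE 0.11), a 7.02-fold increase close to that of F13a1 (limma, adjusted p = 6.7e-08). Of all genes tested, 4.14% had a larger increase.

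S100a10 (chromosome 3, 93555117 to 93564645), whose product is the light chain of the complex, had 1012, 1131 and 1631 scaled fragments across the MP libraries and 827, 816 and 885 across the APL libraries. All APL values were below the MP values, and MP library 3 stood above the rest. The log2 fold change was -0.55 (SE 0.16), a 1.46-fold decrease that did not reach the fold change of 1.5 (limma, adjusted p = 0.013). The call depended on the libraries and on the scaling. S100a10 was called at -0.69 without MP library 1, at -0.61 without MP library 2 and at -0.68 with every library scaled to the same total. Without MP library 3 its log2 fold change was -0.35 (limma, adjusted p = 0.051).

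Per length of transcript, the ratio of Anxa2 to S100a10 was 0.298, 0.220 and 0.215 across the MP libraries and 2.35, 2.57 and 2.57 across the APL libraries. S100a10 was thus the more abundant transcript in every MP library and Anxa2 in every APL library. The log2 ratio differed by 3.37 between the groups, or 10.3-fold. The exact permutation test of the ratios (two-sided) gave p = 0.1, the smallest possible. With 1 library left out at a time the difference stayed between 3.28 and 3.52.

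Of the 8 other annexins tested, 3 were called higher and none lower, against 21.7% and 24.4% over all genes tested. Anxa3 rose from 3269 ± 362 to 11939 ± 593 scaled fragments (SD, n = 3) and Anxa5 from 1182 ± 113 to 5150 ± 396, with log2 fold changes of 1.87 and 2.12. The third, Anxa4, rose from 652 ± 103 to 2272 ± 57.8 (1.81). The median over the 8 was 0.21.

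Urokinase and its receptor moved in opposite directions. Plau (chromosome 14, 20836662 to 20843388) had 170.5, 143 and 153 scaled fragments across the MP libraries and 312, 374 and 326 across the APL libraries. Its log2 fold change was 1.11 (SE 0.13), a 2.16-fold increase (limma, adjusted p = 6.9e-05). Plaur (chromosome 7, 24462500 to 24475873) had 295, 239 and 331 scaled fragments across the MP libraries and 90.7, 135 and 106 across the APL libraries. The highest APL value of the receptor was well under the lowest MP value. Its log2 fold change was -1.38 (SE 0.19), a 2.60-fold decrease (limma, adjusted p = 1.9e-04).

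The ratio of Plau to Plaur in FPKM was 0.266, 0.275 and 0.226 across the MP libraries and 1.62, 1.30 and 1.41 across the APL libraries. The receptor transcript was therefore the more abundant per length in normal MPs and the enzyme transcript in c-Kit+ APL progenitors. The log2 ratio differed by 2.50 between the groups, or 5.66-fold. By the same exact permutation test p was 0.1, again the smallest possible.

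**Figure D2:**
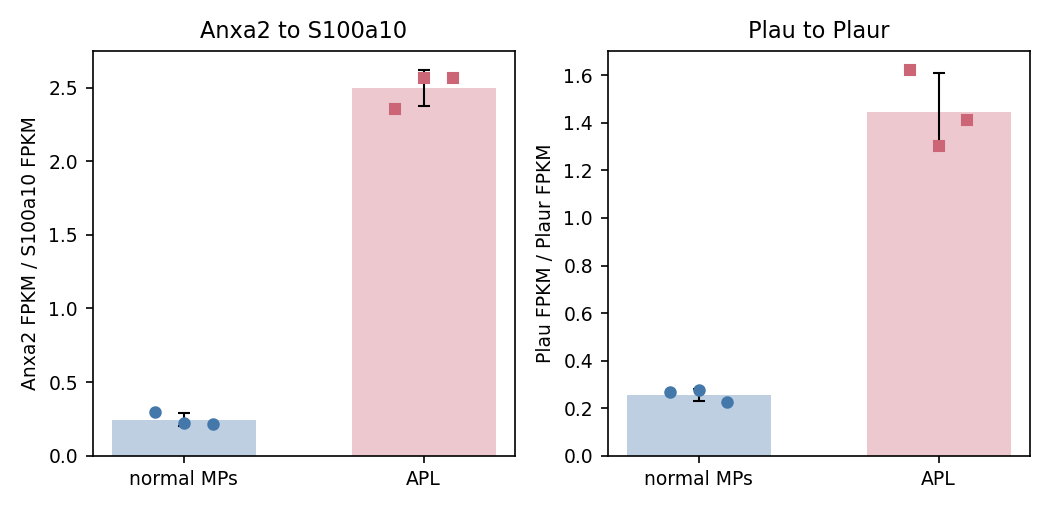
Ratio of Anxa2 to S100a10 (left) and of Plau to Plaur (right), each as FPKM over FPKM, in normal MPs and c-Kit+ APL progenitors. Bars are means of 3 libraries, whiskers the SD and points single libraries, and the highest MP ratios are 0.298 and 0.275 and the lowest APL ratios 2.35 and 1.30.

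Of the 4 inhibitors of fibrinolysis tested, 2 were called higher (Serpine2 and Serpinf2) and none lower, with a median log2 fold change of 0.45. The shares over all genes tested were 21.7% higher and 24.4% lower. Plasminogen activator inhibitor 2 (Serpinb2) averaged 8.95 ± 2.11 scaled fragments in the MP and 4.29 ± 2.87 in the APL libraries (SD, n = 3), and did not pass the test (limma, adjusted p = 0.080). Without APL library 2 it was called lower, at -1.45 (limma, adjusted p = 0.036). Protease nexin 1 (Serpine2), which inhibits thrombin and urokinase, had far more fragments and rose from 1028 ± 33.3 to 7218 ± 232 scaled fragments. Its log2 fold change was 2.81, 7.02-fold (limma, adjusted p = 8.1e-09). Antiplasmin (Serpinf2) was called at 2.17 ± 1.43 against 9.19 ± 5.31, few fragments in both groups. With FPKM over the same genes, and 1 added before the log, its log2 fold change was 0.16. At an APL mean of 0.157 FPKM no increase could reach the fold threshold on that scale.

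Across the plasminogen activation list, 5 of 8 genes tested were called higher (Anxa2, Plau, Eno1, Lrp1 and Plg) and 1 lower (Plaur), with a median log2 fold change of 1.23. Over all genes tested, 21.7% were called higher and 24.4% lower. Eno1, a glycolytic enzyme that also binds plasminogen, rose from 17194 ± 1617 to 43679 ± 5160.1 (1.34 on the log2 scale). Near-identical copies of Eno1 exist in the mouse genome, so its value is uncertain. Plg had 0 fragments in every MP library and at most 3 before scaling in every APL library, at the detection limit, and no fold is given for it. It passed the filter through the APL libraries alone, so its direction was fixed in advance. It still counts among the 5 called higher and in the median. The plasminogen receptor Plgrkt, under its older name 5033414D02Rik in the table, had 792 ± 90.0 and 771 ± 31.8 scaled fragments, a log2 fold change of -0.03 that did not pass the test (limma, adjusted p = 0.79). Plat, the tissue-type activator, was not analysed here.

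**Figure D3:**
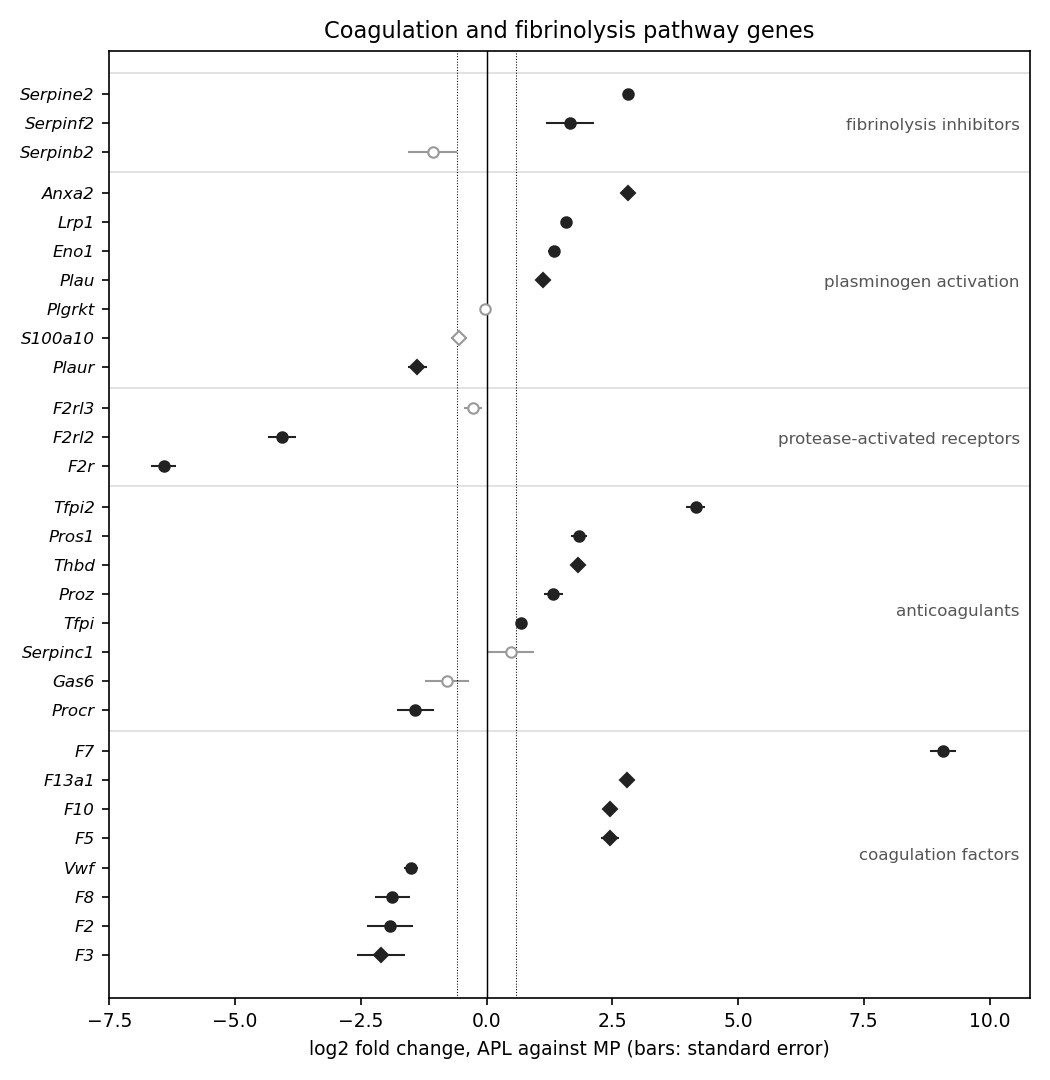
Log2 fold change, APL against MP, of the genes tested in 5 of the lists that had over 3 fragments before scaling in at least 1 library, with the limma standard error as a bar. Diamonds are the 9 genes and circles the others, filled where called and open where not, and dotted lines mark a fold change of 1.5. F7 stands apart at 9.08, and F2r at the other end at -6.42.

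Of the coagulation factors, 4 of 9 genes tested were called higher (F7, F13a1, F10 and F5) and 4 lower (F3, Vwf, F8 and F2), with a median log2 fold change of 0.01. For this and the next 2 lists, the shares over all genes tested were 21.7% higher and 24.4% lower. Von Willebrand factor (Vwf), the carrier of factor VIII made by megakaryocytes and endothelium, fell, with 389, 354 and 418 scaled fragments across the MP libraries and 118, 137 and 156 across the APL libraries (-1.50 on the log2 scale). F8 fell too, from values between 31.6 and 44.7 to values between 6.17 and 15.3 (-1.87). With FPKM over the same genes, and 1 added before the log, the value of F8 was -0.16. From its MP mean of 0.164 FPKM no decrease could reach the fold threshold on that scale. Prothrombin (F2), named after its value was seen, had 4.03 ± 1.06 and 0.411 ± 0.713 scaled fragments, at or near the detection limit in both groups. Of the anticoagulants, 6 of 9 were called higher and 1 lower (Procr), with a median of 1.33. The call of Serpina10 among them rests on at most 3 fragments in any library. Serpina10 was at 0 in every MP library and passed the filter through the APL libraries alone, so its direction was fixed in advance. In the list of the vitamin K cycle and of factor export, 3 of 5 were called higher and none lower, with a median of 0.60. These include Lman1 and Mcfd2, which carry factors V and VIII out of the endoplasmic reticulum. Lman1 went from 4518 ± 163 to 6933 ± 40.4 scaled fragments (0.62) and Mcfd2 from 1774 ± 77.3 to 4349 ± 279 (1.29). The call of Lman1 was lost, at 0.49, with every library scaled to the same total and, at 0.51, with quantile normalization. The third, Vkorc1, had 501, 556 and 823 scaled fragments across the MP libraries and 813, 925 and 1056.5 across the APL libraries, groups that overlap, and lost its call in FPKM, with the same total, and without MP library 1 (0.45), MP library 2 (0.53), APL library 2 (0.60) or APL library 3 (0.50).

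Of the 3 protease-activated receptors tested, which sense thrombin and related proteases on cells, 2 were called lower and none higher. The shares over all genes tested were 24.4% and 21.7%. F2r, the main thrombin receptor, had 918, 1248 and 1544 scaled fragments across the MP libraries and 9.43, 14.7 and 16.0 across the APL libraries, a log2 fold change of -6.42 (SE 0.25, limma adjusted p = 8.1e-08). F2rl2 fell from 95.7 ± 20.5 to 4.77 ± 1.22 (-4.07). The other receptor gene tested did not pass. With the annexins and the 9 genes left out, 14 of the 29 other pathway genes tested were called higher and 6 lower, with a median log2 fold change of 0.48. Plg and Serpina10, whose direction the filter fixed, are among the 14.

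F10 lies in a row of clotting genes on chromosome 8, and its surroundings were examined after the increase of F7 had been seen. F7 ends 1498 bases before F10, and Proz, the gene of protein Z, begins 4231 bases after it. Proz rose from 43.7 ± 4.58 to 112 ± 12.9 scaled fragments (log2 fold change 1.33). Mcf2l, the next gene on the side of F7, rose from 440.0 ± 41.5 to 5952 ± 207 scaled fragments (3.76). On the side of Proz, Pcid2 and Cul4a had 0.34 and -0.21 and were not called. Apart from F7 and Proz, the 6 table entries on each side of F10 hold 8 genes tested, with log2 fold changes between -1.47 and 3.76. Of these 8, 4 were called higher (Mcf2l, Atp11a, Lamp1 and Gm15348) and 1 lower (Grtp1), against 21.7% and 24.4% over all genes tested. Gm15348 had at most 2.60 scaled fragments in a library and 0 in every MP library. It passed the filter through the APL libraries alone, so its direction was fixed in advance.

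**Figure D4:**
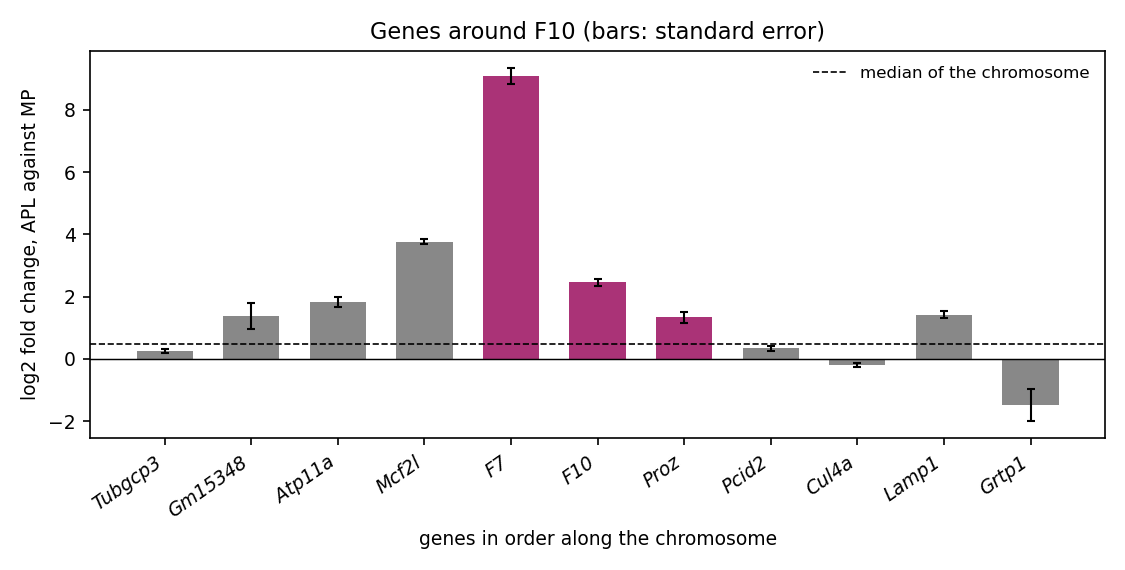
Log2 fold change, APL against MP, of the genes tested around F10 in their order along the chromosome, with the limma standard error as a whisker. The clotting genes F7, F10 and Proz are coloured, and the dashed line is the chromosome's median of 0.48. The tallest bar is F7 (9.08), followed by Mcf2l (3.76) and F10 (2.46).

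Ordered by level per length, the 9 genes in normal MPs ran from S100a10 (113 ± 23.1 FPKM) through F13a1 (36.1 ± 4.29), Anxa2 (27.2 ± 3.08), Plaur (9.59 ± 1.26), F10 (4.81 ± 0.746), Plau (2.44 ± 0.220), F5 (2.29 ± 0.619) and Thbd (1.35 ± 0.0318) to F3. The libraries of Plau and F5 overlapped, so their order was not resolved. In c-Kit+ APL progenitors the order was F13a1, Anxa2 (196 ± 9.47 FPKM), S100a10 (78.4 ± 1.30), F10 (26.8 ± 2.20), F5 (12.4 ± 1.17), Plau (5.27 ± 0.501), Thbd (4.76 ± 0.417), Plaur (3.70 ± 0.731) and F3. Here the libraries of Plau overlapped with those of Thbd, and those of Thbd with those of Plaur. S100a10 led the order in normal MPs and F13a1 in c-Kit+ APL progenitors.

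Markers of other cell types that the gates could hold also differed between the groups, and their part in the results was not tested. Beside the counts of markers called, the shares over all genes tested were 21.7% higher and 24.4% lower. In bulk libraries, fewer cells of a type cannot be told apart from less RNA per cell. Of the markers of megakaryocytes and platelets, cells that make factor V, factor XIII A and von Willebrand factor, 9 of 11 tested were called lower and none higher. Their summed level lay between 85.2 and 123 FPKM in the MP libraries and between 4.998 and 6.87 in the APL libraries. Pf4 had 429 ± 153 and 9.16 ± 2.10 scaled fragments and Itga2b 1769 ± 249 and 37.3 ± 11.6. Gp6 was at 0 in all APL libraries, and Vwf is in this list as well as among the coagulation factors. F5 and F13a1 thus rose while these markers fell. Of the markers of monocytes and macrophages, a lineage known to express F10, F13a1 and Thbd, 5 of 10 were called higher and 4 lower. The summed level of the list, between 853 and 1029 FPKM in the MP libraries and between 10694 and 11017 in the APL libraries, was mostly that of Ly6c2 (873 and 10786 FPKM on average), which has a near-identical neighbour in Ly6c1. Itgam rose from 2672 ± 635 to 5269.9 ± 199.7 scaled fragments, and Csf1r, chosen after its value was seen, fell from 1415 ± 125 to 405 ± 47.3.

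Endothelial markers, of a cell type that carries thrombomodulin and von Willebrand factor, were called lower for 6 of 7 genes tested. The other, Cdh5, named after its value was seen, was higher in the APL libraries but not called. It had 0.613 ± 0.531 and 2.37 ± 1.15 scaled fragments (SD, n = 3), near the detection limit in both groups. The markers summed to between 42.9 and 58.9 FPKM in the MP libraries and between 7.16 and 9.08 in the APL libraries. Their most abundant genes were Egfl7 (32.7 and 4.95 FPKM) and Pecam1 (12.2 and 3.24). In every APL library, 3 of these markers had at most 3 fragments. All 7 erythroid markers tested were called lower, with summed levels between 312 and 353 FPKM in the MP libraries and between 9.20 and 18.1 in the APL libraries. Klf1 had 95.5 and 0.477 FPKM and Hba-a1, which has a near-identical copy, 71.7 and 10.2. Of the mast cell and basophil markers, 4 of 6 were called lower and 1, Mcpt8, higher (17.4 and 38.6 FPKM), while Cpa3 fell (34.0 and 0.786 FPKM). Their summed level was 51.6 to 72.7 FPKM in the MP libraries and 42.1 to 49.9 in the APL libraries. Of the neutrophil granule markers, 3 of 8 were called higher, Mpo (3549 and 8354 FPKM) and Elane (2719 and 9386 FPKM) among them. The 2 called lower, named after their values were seen, were Ltf (132 and 48.4 FPKM) and Ngp (629 and 222 FPKM). The sums of the list were 9391 to 11620.1 and 23852 to 28450.1 FPKM. With quantile normalization the log2 fold change of Mpo was 0.24 in place of 1.22, and its call was lost (limma, adjusted p = 0.34). The sorting marker Kit was detected in both groups, at 10668 ± 272 and 5929 ± 132 scaled fragments, and was called lower in APL (-0.85). Ly6a, which encodes Sca-1, was low at 27.2 ± 7.09 and 43.4 ± 4.99 and was called higher in APL (0.68, limma adjusted p = 0.043). Its call was lost in several alternatives, among them no filter, FPKM and the same total. Cd34 had 6684 ± 1096 and 82.6 ± 8.40 scaled fragments and was called lower (-6.31). Fcgr3 had 779.6 ± 122 and 2873 ± 209 and was called higher (1.89).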

How the data were processed

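Each group held 3 libraries. The authors deposited 1 table with FPKM (normalized to transcript length and depth) and a fragment signal for each gene and library. The deposited fragment signal is not a whole count: between 88.1% and 89.2% of its low values were whole multiples (within 0.01) of a step specific to the library, and the rest fractions, so no count model was used. Per the labels, the submitters' notes name CASAVA 1.8, TopHat2 2.0.6 and mm10. The study's methods name FastQC, Cutadapt, STAR, mm9 and HTSeq-count. The tool behind the table is not given in the sources used here. Its loci match GRCm38: 16295 of 16361 identifiers found in RefSeq overlap the RefSeq gene. Coordinates count from 1.

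Differences were tested with limma 3.58.1 (lmFit, and eBayes with a trend) in R 4.3.3, without a block, and checked on simulated data. The simulation changed a small part of the genes, all well detected and as many up as down. It therefore does not cover weakly detected genes such as F3, or changes in a large part of the genes. Single genes and log2 FPKM ratios were compared by exact permutation. Genes named were the 9, within each list the called genes with the highest FPKM (up to 3 in each direction), some genes set by name whatever their call, and the 2 most abundant markers of each cell type. Of these, 1 gene is not reported here. The 9 genes and all lists were chosen with earlier results of these data known, and no list was tested as a set. Promoter sequences were those of RefSeq GRCm38.p6. Alternatives covered filters, pseudocounts, FPKM (with 1 added before the log), scaling, thresholds, the replicate block and each library left out.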

Additional observations from a re-analysis of the deposited data

How the results depend on the processing

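Of 18 alternatives, 17 gave a value for single genes, and in each of these F5, F10, F13a1, Thbd, Anxa2 and Plau were called higher and Plaur lower. The number of the 9 genes called lower was 1 in place of 2 with a minimum of 10 scaled fragments and with FPKM, since F3 then fell under the filter. With FPKM over the genes of the scaled fragment filter, an alternative added after the data were seen, it was also 1. In each fit with FPKM, 1 was added before the log, so folds of genes with low FPKM come out small. For F3, at means of 0.148 and 0.0240 FPKM, no decrease could reach the threshold, and the log2 fold change was -0.17. The numbers called with FPKM below are limited in the same way. F3 ranged from -2.49 to -1.62 with 1 library left out at a time. S100a10 had -0.68 with the same total and ranged from -0.69 to -0.35 with 1 library left out. Of the 46 pathway genes tested, 8 were called lower, against 4 of the 34 tested with FPKM and 5 of 46 with FPKM over the genes of the scaled fragment filter. Plgrkt (5033414D02Rik) had -0.03, but 0.023 with FPKM under either filter and 0.030 with median ratio scaling, and ranged from -0.081 to 0.059 with 1 library left out. The cause was not tested for S100a10 and Plgrkt. Of 619 values of 37 other genes, 591 kept their direction and call. Over all genes, 6725 of 14595 tested were called, against 4131 of 11131 with FPKM and 4476 of 14595 with FPKM over the genes of the scaled fragment filter. Scaling to the same total shifted the median over all genes by -0.13, and genes called lower then made up 60.8% of calls, against 52.9%.

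In the fit with a replicate block for the library number, 6753 genes were called against 6725, and the log2 fold change of F5 was 2.45 as before, with a standard error of 0.11. The block left the numbers called at 6 higher and 2 lower of the 9 genes, and at 23 and 8 of the pathway genes. Without the block, Plg and Serpina10, whose direction the filter fixed, count among the 23. The ratio differences of 3.37 (Anxa2 to S100a10) and 2.50 (Plau to Plaur) had p = 0.25 in a paired exact permutation test, the smallest that 3 pairs allow. The deviations of same-numbered libraries correlated at 0.211, -0.0588 and 0.210 over 10602 genes. Those of differently numbered libraries correlated at values from -0.414 to 0.311. That range holds the same-numbered values, so the numbers were not taken as pairs. In depth, F3, F2, Plg and Serpina10 had so few fragments that their levels could not be told from absence in at least 1 group.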
